A study of Mus musculus with 4 samples.

Results

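The dystrophin glycoprotein complex was followed through 8 of the genes that encode it or its closest partners, Dmd, Utrn, Dag1, Sgca, Sgcb, Sgcd, Dtna and Lama2, out of 32285 mouse genes counted in left ventricle. They were taken by symbol, and unique molecular identifiers (UMIs, each standing for 1 captured RNA molecule) were summed over all barcodes of a library and given as counts per 1000000 (CPM). All 4 libraries came from male wild-type C57BL/6J mice on the 10x Chromium 3′ system, with 1 library for each pairing of age (young or aged) and treatment (sham or I/R). Young mice were 3 to 5 months old and aged mice 24 to 26 months old. I/R stands for surgery on the left anterior descending coronary artery that cut off blood for 45 min, followed by 24 h of reperfusion, while the sham libraries are described in the sample labels as fresh tissue of healthy animals and in the study as sham operations. The whole ventricle was dissociated, so the libraries do not separate injured from remote muscle, and the number of mice behind each library is not given in the sources used here. The labels name nuclear RNA as the molecule where the study describes single cells.

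Dystrophin is a rod-shaped protein that ties the actin cytoskeleton under the muscle membrane to a cluster of membrane proteins, and through them to laminin in the matrix around the fiber. Dystroglycan is the receptor that spans the membrane, the sarcoglycans brace it, dystrobrevin and the syntrophins sit on the inner face as a signaling scaffold, and utrophin is the close relative that can take the place of dystrophin. The complex protects the membrane of heart and skeletal muscle during contraction, and loss of dystrophin, of a sarcoglycan or of the laminin α2 chain causes muscular dystrophy or cardiomyopathy.

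The stretches just before the annotated starts are shown for Dmd, Utrn, Sgcd and Lama2, which were lower after I/R in young mice and higher in aged mice on both scales used below, and for Sgca, which was lower after I/R in aged mice. Each is the run of 250 bases before a RefSeq start on GRCm38.p6, 5′ to 3′ on the gene's own strand, in lower case with motif matches in capitals. Both strands were searched. The E-box, spelled CANNTG, is bound by basic helix-loop-helix factors such as MyoD, the MEF2 motif by the MEF2 family and the CArG box by serum response factor. The GC box, spelled GGGCGG, is a motif of Sp1. The other motifs were AGATAA, bound by GATA factors, and the TATA box, spelled TATAAA. Of 32851 such windows over all genes, 66.2% held an E-box, 2.92% a MEF2 motif, 1.47% a CArG box, 32.7% a GC box, 9.99% the GATA motif and 12.4% a TATA box.
Dmd, X:82948620-82948869, plus strand: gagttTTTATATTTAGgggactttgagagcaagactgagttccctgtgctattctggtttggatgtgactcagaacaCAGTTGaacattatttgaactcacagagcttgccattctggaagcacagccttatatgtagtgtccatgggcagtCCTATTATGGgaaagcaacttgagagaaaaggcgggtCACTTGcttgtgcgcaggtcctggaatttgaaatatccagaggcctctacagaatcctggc
Utrn, 10:12861736-12861985, minus strand: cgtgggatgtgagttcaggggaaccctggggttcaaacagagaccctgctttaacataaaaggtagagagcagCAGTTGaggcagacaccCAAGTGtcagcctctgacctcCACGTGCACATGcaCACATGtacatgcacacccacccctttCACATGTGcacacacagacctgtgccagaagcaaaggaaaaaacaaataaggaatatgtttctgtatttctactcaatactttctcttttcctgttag
Sgcd, 11:47379326-47379575, minus strand: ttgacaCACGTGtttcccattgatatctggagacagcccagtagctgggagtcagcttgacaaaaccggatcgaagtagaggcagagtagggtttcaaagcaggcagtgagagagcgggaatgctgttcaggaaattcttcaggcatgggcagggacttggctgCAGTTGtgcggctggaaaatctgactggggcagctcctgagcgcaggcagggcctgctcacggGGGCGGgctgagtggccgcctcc
Lama2, 10:27616943-27617192, minus strand: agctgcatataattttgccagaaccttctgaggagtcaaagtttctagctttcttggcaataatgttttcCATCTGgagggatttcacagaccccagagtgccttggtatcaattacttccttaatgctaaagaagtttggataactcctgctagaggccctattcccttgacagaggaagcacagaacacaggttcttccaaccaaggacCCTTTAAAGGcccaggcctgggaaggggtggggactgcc
Sgca, 11:94976328-94976577, minus strand: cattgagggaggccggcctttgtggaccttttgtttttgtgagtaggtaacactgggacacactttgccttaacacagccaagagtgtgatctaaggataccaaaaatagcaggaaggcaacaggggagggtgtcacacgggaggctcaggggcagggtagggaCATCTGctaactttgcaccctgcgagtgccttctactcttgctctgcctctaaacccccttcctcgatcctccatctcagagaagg
The Dmd window lies before the start at the 5′ end of the gene and held a MEF2 motif 244 bases before the start with a TATA box overlapping it on the other strand, a CArG box 98 bases before it and 2 E-boxes. The Lama2 window held 1 CArG box, 39 bases before the start, and 1 E-box. The Utrn window held 7 E-boxes, some of which overlap, the Sgcd window 2 E-boxes and 1 GC box, and the Sgca window 1 E-box. The Utrn, Sgcd and Lama2 windows lie inside the annotated spans of their genes, given below, so they precede inner starts. The Sgca window lies just before its gene's span. Another Dmd window, before an inner start (X:85048045-85048294), held 3 GC boxes and none of the other motifs, and is not shown. All matches are of letters and not known binding sites. Since 3′ counts do not show where a transcript began, none of the UMIs below can be assigned to 1 start.

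The libraries held between 91124 and 102883 barcodes and between 25836175 and 66767829 UMIs, with young sham the shallowest and aged I/R the deepest. The median barcode had 244 UMIs in young sham and 374 in young I/R, and 391 and 675 in their aged counterparts, and in the same order 28.4%, 55.2%, 67.9% and 98.8% of barcodes had at least 200 detected genes. Any 2 libraries shared between 2366 and 2843 barcode sequences, at most 2.83% of either. All 8 genes were detected in every library, with 648 UMIs for Sgcd in young I/R as the lowest count and 46632 for Dmd in aged I/R as the highest. Cardiomyocyte markers (18 genes) took between 95287 and 118504 CPM, endothelial markers (18 genes) between 1869 and 2200, fibroblast markers (18 genes) between 1213 and 2142 and macrophage markers (18 genes) between 377 and 722, with none of these genes at 0 in any library. Conditions without a replicate allow no test, and every interval below is a 95% interval that covers counting error only, not the spread between animals.

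Dmd encodes dystrophin itself, and its level was highest without injury in the young heart. It stood at 795 CPM (784 to 806) in young sham, 698 (692 to 705) in aged I/R, 532 (525 to 539) in aged sham and 521 (514 to 528) in young I/R. The 2 higher libraries were thus young sham and aged I/R, and the intervals of young I/R and aged sham overlapped. Utrn, the dystrophin relative, stood at 236 CPM (230 to 242) in young sham, 129 (125 to 132) in young I/R, 154 (151 to 158) in aged sham and 265 (261 to 269) in aged I/R. Here aged I/R was the highest library and no 2 intervals overlapped. The cardiomyocyte markers, summed, took 107368 and 95287 CPM in the young sham and I/R libraries and 100695 and 118504 in the aged ones. Their range was narrower than that of either gene. The sum had a log2 ratio of 0.23 in aged I/R over aged sham, where all genes had a median of 0.09. Only 6 of the 18 markers exceeded that median, so the sum does not speak for most of the list. In young I/R over young sham, 15 of 18 exceeded the all-gene median of -0.44, and the sum had -0.17. The counts were 14 of 18 in aged over young sham and 4 of 18 in aged over young I/R. The part of cardiomyocyte content in the levels of Dmd and Utrn was not tested.

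Dag1 encodes both subunits of dystroglycan, the laminin receptor of the complex. It had 170 CPM (165 to 175) in young sham, 136 (132 to 140) in young I/R, 135 (131 to 138) in aged sham and 183 (180 to 186) in aged I/R. Aged I/R was the highest library and young sham the next, as for Utrn, and young I/R and aged sham were not separated by their intervals. Lama2 encodes the α2 chain of the laminin that dystroglycan binds, and had 129 CPM (124 to 133) in young sham, 54.1 (51.9 to 56.5) in young I/R, 70.5 (67.9 to 73.1) in aged sham and 83.7 (81.5 to 85.9) in aged I/R. Young sham was the highest library for Lama2 and the other 3 were apart from it and from each other. The fibroblast markers, summed, took 1638 and 1213 CPM in the young sham and I/R libraries and 2142 and 1597 in the aged ones, with aged sham the highest. The part of fibroblast content in the Lama2 level was not tested.

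Among the sarcoglycans, Sgcd differed most between libraries and Sgca and Sgcb least. Sgcd, δ-sarcoglycan, had 53.6 CPM (50.8 to 56.5) in young sham, 16.3 (15.1 to 17.6) in young I/R, 21.5 (20.1 to 23.0) in aged sham and 33.0 (31.7 to 34.4) in aged I/R. No 2 of its intervals overlapped. Sgcb, β-sarcoglycan, had 63.2 CPM (60.1 to 66.3) in young sham, 54.1 (51.8 to 56.4) in young I/R, 63.6 (61.2 to 66.0) in aged sham and 70.8 (68.8 to 72.9) in aged I/R, and both sham libraries were alike within their intervals. Sgca, α-sarcoglycan, had 74.6 CPM (71.3 to 78.0) in young sham, 64.8 (62.3 to 67.3) in young I/R, 76.8 (74.2 to 79.5) in aged sham and 56.5 (54.7 to 58.3) in aged I/R. Sgca was the gene of the 8 with its lowest level in aged I/R. Dtna, which encodes α-dystrobrevin, had 80.7 CPM (77.3 to 84.2) in young sham, 60.0 (57.7 to 62.5) in young I/R, 50.4 (48.3 to 52.6) in aged sham and 72.5 (70.4 to 74.5) in aged I/R, and no 2 intervals overlapped.

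**Figure D1:**
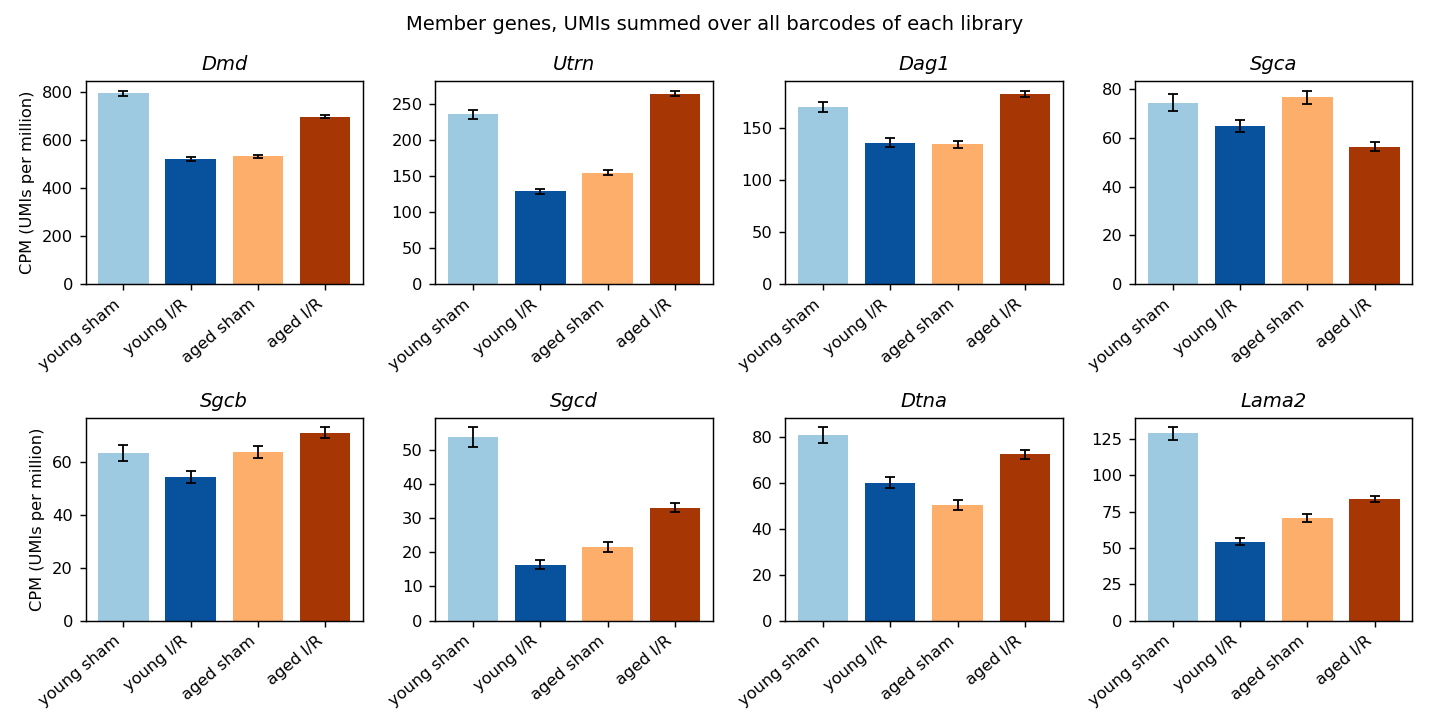
CPM (y axis from 0) of each of the 8 genes in the 4 libraries (x axis), with bars for the value and error bars for the exact Poisson 95% interval of the count. Dmd, Utrn, Dag1, Sgcd, Dtna and Lama2 have their 2 highest bars in young sham and aged I/R. Of these, Dmd, Sgcd, Dtna and Lama2 stand highest in young sham. Sgca stands lowest in aged I/R.

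In a library of mixed cells, fewer cells of a type and less RNA per cell cannot be told apart, and a shift shared by most genes moves every ratio. The median log2 ratio of every gene that reached 100 UMIs in a pair of libraries was -0.44 for young I/R over young sham, 0.09 for aged I/R over aged sham, -0.14 for aged over young sham and 0.43 for aged over young I/R. Each ratio is therefore given on total UMIs and again after this median was subtracted (the relative log2 ratio). Of the marker lists, neutrophil markers (5 genes) took 14.2 CPM in young sham and 95.5 in young I/R, and 23.2 and 95.7 in the aged counterparts, and erythroid markers (5 genes) 2567, 1957, 1691 and 1025 in that order. Their part in the members' ratios was not tested. A gene was counted as past 1.5-fold when both values passed 0.58 on the log2 scale in the same direction.

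After I/R in young mice, Sgcd and Lama2 were the members past 1.5-fold, both lower. Sgcd had a log2 ratio of -1.71 (-1.85 to -1.58), or -1.27 relative, and Lama2 -1.25 (-1.33 to -1.17), or -0.81 relative. Over all genes 21.0% were past 1.5-fold lower in this comparison, so 2 of 8 lies near the background, and 5.35% were past it higher, against 0 of 8. Utrn had -0.87 (-0.93 to -0.82) and Dmd -0.61 (-0.64 to -0.58), with relative values of -0.43 and -0.17. The other 4 genes lay below 0 on total UMIs and above it relative to the median, with Dag1 at -0.32 and 0.12, Sgca at -0.20 and 0.24, Sgcb at -0.22 and 0.22, and Dtna at -0.43 and 0.02. The members' median was -0.52 against -0.44 for all genes.

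After I/R in aged mice, 7 of the 8 genes were higher and Sgca was lower, on both scales. The share of all genes that were higher was not counted. Genes that span over 200 kb, among them Dmd, Utrn, Sgcd, Dtna and Lama2, had a lower quartile of 0.00 and a median of 0.26. Utrn had the largest ratio, 0.78 (0.74 to 0.82), or 0.69 relative, and was the 1 member past 1.5-fold higher, against 11.2% of all genes. Sgcd followed with 0.62 (0.51 to 0.73) and 0.53 relative, just short of the limit on the second scale, then Dtna with 0.52 (0.45 to 0.60), Dag1 with 0.44 (0.39 to 0.48) and Dmd with 0.39 (0.37 to 0.42). Lama2 had 0.25 (0.18 to 0.31) and Sgcb 0.16 (0.09 to 0.23), the latter 0.07 relative. Sgca had -0.44 (-0.51 to -0.38), or -0.53 relative, and 0 members were past 1.5-fold lower, against 7.43% of all genes. The members' median was 0.42 against 0.09 for all genes.

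Between the sham libraries, the aged heart had less Sgcd, Lama2, Dtna, Utrn, Dmd and Dag1 and about the same Sgca and Sgcb. Sgcd had a log2 ratio of aged over young of -1.32 (-1.44 to -1.19), or -1.18 relative, and Lama2 -0.87 (-0.94 to -0.80), or -0.73 relative. These 2 of 8 were past 1.5-fold lower, against 10.8% of all genes, and 0 of 8 past it higher, against 6.12%. Dtna had -0.68 (-0.77 to -0.59), Utrn -0.61 (-0.66 to -0.56), Dmd -0.58 (-0.61 to -0.55) and Dag1 -0.33 (-0.39 to -0.27), all below 0 on the relative scale as well. Sgca had 0.04 (-0.04 to 0.12) and Sgcb 0.01 (-0.08 to 0.10), and relative values of 0.18 and 0.15. The members' median was -0.60 against -0.14 for all genes.

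Between the I/R libraries, 7 of the 8 genes were higher in aged than in young mice on total UMIs, but only Utrn, Sgcd and Lama2 stayed apart from the median of all genes in that direction. Utrn had 1.04 (1.0 to 1.09), or 0.62 relative (0.57 to 0.66), and Sgcd 1.02 (0.89 to 1.14), or 0.59 relative (0.46 to 0.72). Both were counted as past 1.5-fold higher, against 16.4% of all genes, although the relative intervals of both reach below the limit. Lama2 had 0.63 (0.56 to 0.70) and 0.20 relative. Dmd with 0.42 and Dag1 with 0.43 came to 0.00 relative, Sgcb went from 0.39 to -0.04 and Dtna from 0.27 to -0.16. Sgca had -0.20 (-0.27 to -0.12), or -0.62 relative (-0.70 to -0.55), and 0 of 8 were past 1.5-fold lower on both scales, against 3.29% of all genes. The members' median was 0.43, equal to that of all genes. The share of all genes that were higher in aged than in young I/R was not counted.

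**Figure D2:**
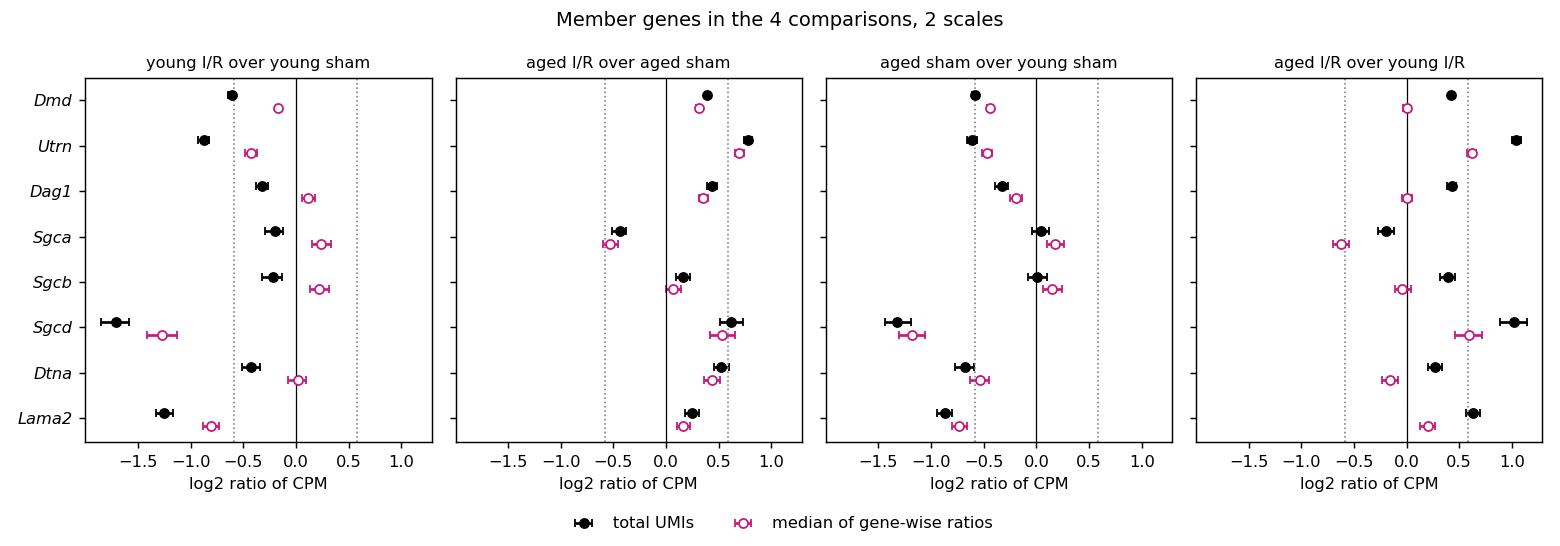
Log2 ratio of CPM (x axis) of each gene (y axis) in the 4 comparisons, on total UMIs (filled) and relative to the median of all genes (open), with 95% counting intervals and dotted lines at 1.5-fold. Sgcd and Lama2 lie furthest left in young I/R over young sham and in aged over young sham, and Dag1, Sgca, Sgcb and Dtna change side with the scale in young I/R over young sham.

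On the log2 scale, the change from sham to I/R was below 0 in young and above 0 in aged mice for 7 of the 8 genes on total UMIs, and for 4 of them on both scales. The median of all genes had the same signs on total UMIs, with -0.44 in young and 0.09 in aged mice. For genes that span over 200 kb it was -0.89 and 0.26. The share of all genes with opposite signs was not counted. The difference of the log2 ratios (aged minus young) was 2.33 (2.16 to 2.51) for Sgcd, 1.65 (1.58 to 1.72) for Utrn, 1.5 (1.39 to 1.60) for Lama2 and 1.0 (0.97 to 1.04) for Dmd, and these are the 4 that kept opposite signs on both scales. All genes had a median difference of 0.54, and 96.7% of 12448 genes had a smaller difference than Sgcd, 88.7% than Utrn, 85.4% than Lama2 and 69.6% than Dmd. Dtna had 0.95 (0.84 to 1.06) and Dag1 0.76 (0.69 to 0.83). Sgcb had 0.38 (0.26 to 0.50) and Sgca -0.24 (-0.35 to -0.13), both under the median of all genes. Both ages have 1 library per arm, so these differences were not tested against the spread between animals.

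The 8 genes differ widely in size. On GRCm38, Dmd spans X:82948870-85206141 on the plus strand, a length of 2257 kb of which 1.05% is exonic. Sgcd (11:46896253-47988969, minus strand) spans 1093 kb, Lama2 (10:26980036-27619758, minus strand) 640 kb, Utrn (10:12382188-12869365, minus strand) 487 kb and Dtna (18:23415135-23659715, plus strand) 245 kb. Dag1 (9:108204634-108263958, minus strand) spans 59.3 kb, Sgcb (5:73632749-73647790, minus strand) 15.0 kb and Sgca (11:94962791-94976327, minus strand) 13.5 kb. Among the counted genes, Gm47898 shares 90 exon bases with Dtna and Gm48084 shares 631 with Lama2, both on the opposite strand and with at most 8 UMIs in a library.

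Over all genes, the ratios between libraries were ordered by the genomic span of the gene. Among genes over 200 kb the median log2 ratio was -0.89 in young I/R over young sham, 0.26 in aged I/R over aged sham, -0.37 in aged over young sham and 0.83 in aged over young I/R, where genes under 10 kb had -0.21, -0.07, 0.01 and 0.21. Sgcd, Lama2 and Utrn, the members counted as past 1.5-fold, are all over 200 kb. Of genes over 200 kb, 40.4% were past 1.5-fold lower in young I/R over young sham and 16.2% in aged over young sham. Past it higher were 14.8% in aged I/R over aged sham and 36.5% in aged over young I/R. Genes over 200 kb together took 7.14% of the UMIs of young sham and 4.19% of young I/R, and 4.69% and 7.28% of their aged counterparts. Mitochondrial genes moved the other way, with 10.00%, 14.1%, 15.6% and 9.98% in the same order, and Malat1, an RNA that stays in the nucleus, took 7.34%, 2.22%, 2.88% and 4.33%. The part of these library differences in the members' ratios was not tested, and whether reads in introns were counted is not given in the sources used here.

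Set against genes of their own size, Sgcd lay furthest from its class in young I/R over young sham and in aged over young sham. In aged I/R over aged sham it lay 0.36 above its class, where Utrn lay furthest. In aged over young I/R it lay 0.18 above, where Sgca lay furthest. Sgcd lay 0.83 below the median of genes over 200 kb in young I/R over young sham, with 9.03% of that class below it, and 0.95 below in aged over young sham, with 1.20% below it. Lama2 lay 0.36 and 0.50 below its class in the same comparisons, with 28.5% and 9.91% of the class below it. Utrn lay 0.02 above its class in young I/R over young sham and 0.52 above in aged I/R over aged sham, where 90.3% of the class was below it. Dmd lay 0.28 above its class in young I/R over young sham, 0.13 above in aged I/R over aged sham, 0.21 below in aged over young sham and 0.41 below in aged over young I/R. Dtna lay 0.46 and 0.27 above and 0.31 and 0.56 below its class in the same order. Sgca, judged against genes of 10 to 50 kb, lay 0.51 below in aged I/R over aged sham with 11.8% of the class below it, and 0.58 below in aged over young I/R with 11.2% below it.

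**Figure D3:**
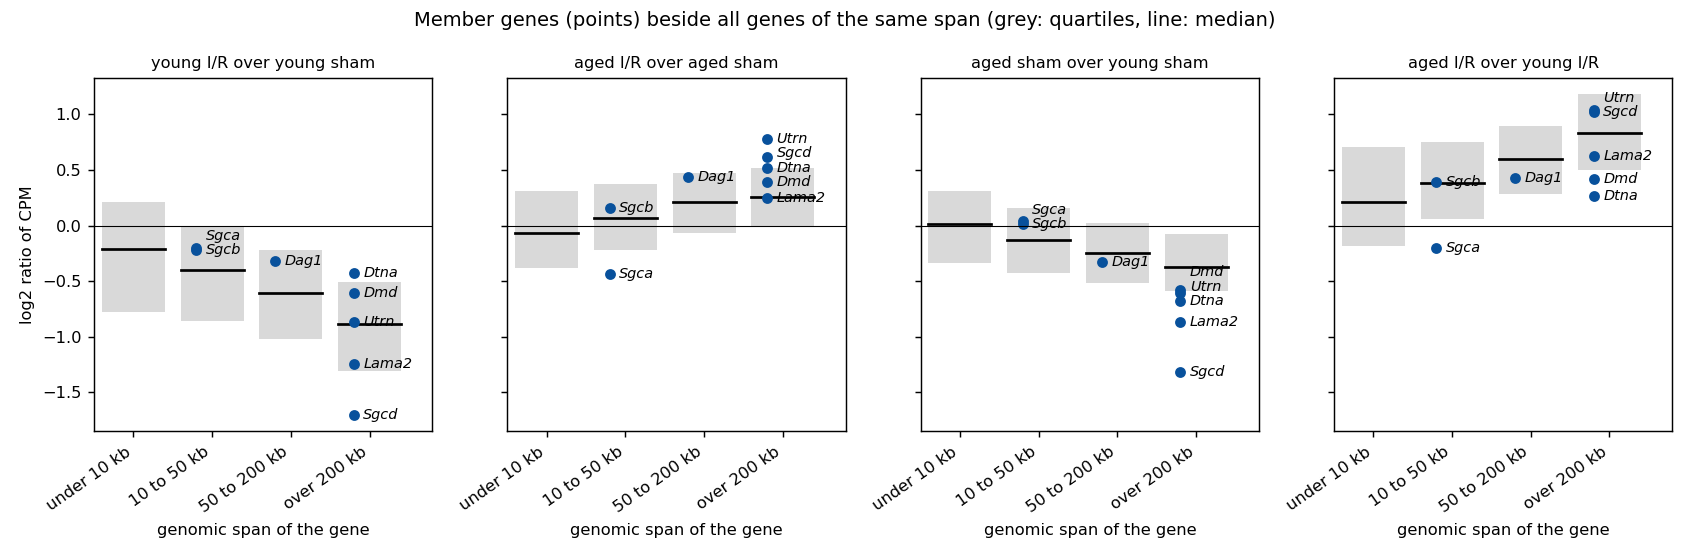
Log2 ratio of CPM on total UMIs (y axis) in the 4 comparisons by genomic span of the gene (x axis), with grey bars for the quartiles of all genes of a span, black lines for their medians and points for the 8 genes. The medians slope down from short to long genes in young I/R over young sham, from -0.21 to -0.89, and up in aged over young I/R, from 0.21 to 0.83, and Sgcd lies below its class in aged over young sham.

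The share of the UMIs of all genes over 200 kb is a quantity chosen after the data were seen. In it, the fold from the lowest to the highest library was smaller than in CPM for all members over that span. Sgcd and Lama2 stayed highest in young sham. Single comparisons could differ more, with log2 ratios of -0.39 against 0.25 in CPM for Lama2 in aged I/R over aged sham. Dtna had -0.52 against 0.27 in aged over young I/R. Dmd made up 1.11% of these UMIs in young sham (1.10 to 1.13), 1.24% in young I/R (1.23 to 1.26), 1.13% in aged sham (1.12 to 1.15) and 0.960% in aged I/R (0.951 to 0.968). On this scale aged I/R was the lowest library for Dmd and young I/R the highest. Utrn made up 0.330%, 0.307%, 0.329% and 0.365%, with aged I/R still the highest. Sgcd made up 0.0750% in young sham (0.0711 to 0.0790) against 0.0390% after I/R at that age and 0.0458% and 0.0454% in the aged libraries, sham and I/R, so young sham stood alone and both aged libraries overlapped. Lama2 made up 0.180%, 0.129%, 0.150% and 0.115%, lower after I/R at both ages. Dtna made up 0.113%, 0.143%, 0.107% and 0.0996%.

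**Figure D4:**
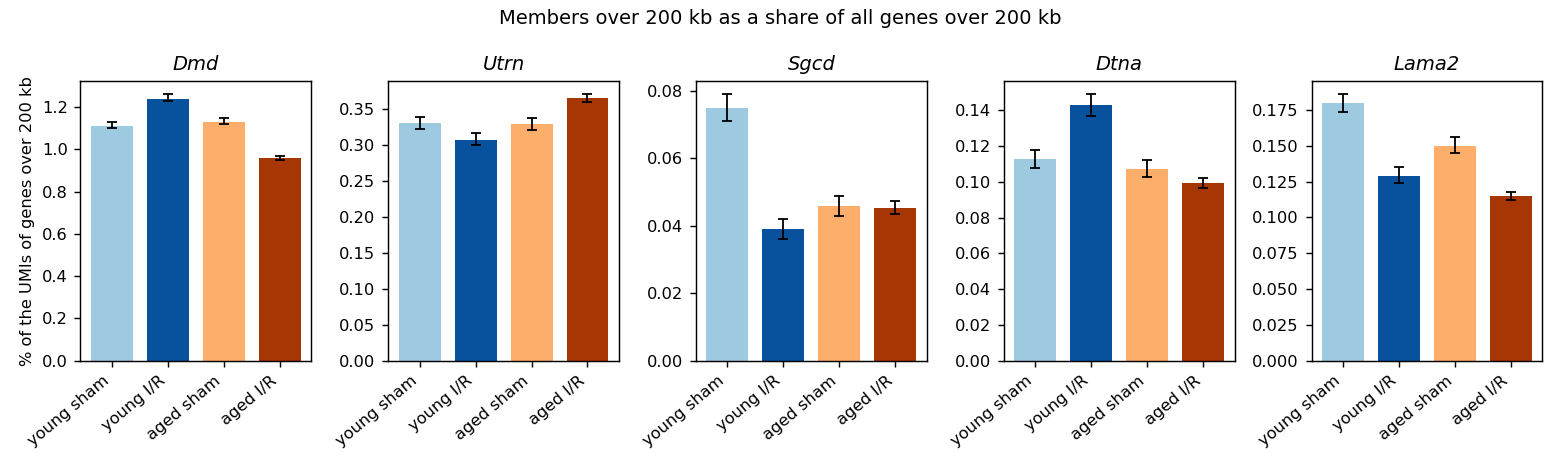
Share of the UMIs of all genes over 200 kb (percent, y axis from 0) taken by each of the 5 members over that span in the 4 libraries (x axis), with exact binomial 95% intervals as error bars. Sgcd stands at 0.0750% in young sham and between 0.0390% and 0.0458% elsewhere, while Dmd stays between 0.960% and 1.24%.

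The 241086 barcodes with at least 200 detected genes were clustered without the 8 genes and gave 12 clusters. They were 28.4% of the barcodes of young sham and 55.2% of young I/R, and 67.9% and 98.8% of the aged sham and I/R libraries. Cluster shares, levels and directions between libraries thus compare unlike subsets. Clusters were named macrophage-like, endothelial-like, fibroblast-like, mural-like and erythroid-like from their markers, 6 stayed unnamed, and none met the rule for a cardiomyocyte-like name. Markers that reached 1.5-fold were 14 of 18 for fibroblast-like, 8 of 18 for macrophage-like and 5 of 18 for endothelial-like. They were 4 of 11 for mural-like, and 3 of 5 and 5 of 5 for the erythroid-like clusters. The 18 cardiomyocyte markers, summed, took from 90573 to 130230 CPM in every cluster and library, and their mean fold over the other clusters ran from 0.910 to 1.08. One unnamed cluster of 19901 barcodes was led by Mhrt and Coro6, with Myh7b also among its 10 leading genes. Mhrt is a long noncoding RNA transcribed from the Myh7 locus of heart muscle. In the cluster it leads, 2 of the 18 cardiomyocyte markers reached 1.5-fold. The cluster held 18.0% of the clustered barcodes of young sham and 6.96% of young I/R, and 7.99% and 6.43% of the aged sham and I/R libraries.

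Dmd was 2.73-fold higher in this Mhrt-led cluster than in the other clusters on average over the libraries, from 2.07-fold in aged I/R to 3.42-fold in young I/R, where the summed cardiomyocyte markers were 1.08-fold higher. Its level there was 2094 CPM in young sham against 862 in the other clusters, 1605 against 469 in young I/R, 1427 against 475 in aged sham and 1329 against 642 in aged I/R. Sgcd was 1.86-fold (1.56 to 2.15 over the libraries) and Dtna 1.60-fold (1.48 to 1.72) higher in the same cluster, in 4 of 4 libraries. Utrn was 1.27-fold higher on average, with 1.04-fold in young sham as the lowest. The shorter genes Dag1, Sgca and Sgcb stood at 0.874-fold, 1.07-fold and 1.11-fold there. Another unnamed cluster was led by Myl4, Myl7 and Sln, and the study lists Myl4 and Myl7 as cardiomyocyte markers. The summed cardiomyocyte markers used here were 0.995-fold in it, so it is not shown to be richer in cardiomyocytes than the other clusters. Dmd was 0.912-fold, Sgcd 0.913-fold and Dtna 0.876-fold in that cluster. These are descriptions of clusters made from the same barcodes, with no test.

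Lama2 had its highest mean fold in fibroblast-like barcodes, with 204 CPM against 135 in the other clusters in young sham, 70.1 against 54.1 in young I/R, 90.7 against 70.4 in aged sham and 102 against 81.7 in aged I/R, a mean of 1.34-fold (1.25 to 1.52). It was also 1.23-fold higher in the Mhrt-led cluster, where its level of 74.1 CPM in young I/R and 91.1 in aged sham was slightly above that of fibroblast-like barcodes. Dmd was below the other clusters in fibroblast-like barcodes in 4 of 4 libraries (0.804-fold), and in endothelial-like barcodes in 4 of 4 (0.723-fold). The same held in macrophage-like barcodes (0.846-fold), in the erythroid-like clusters (0.811-fold and 0.840-fold) and in unnamed clusters at 0.653-fold and 0.782-fold. Low Dmd was thus not particular to a named class, and the other clusters include the Mhrt-led one. Dag1, Sgca and Sgcb were almost level over the clusters, with mean folds from 0.874 to 1.09, from 0.890 to 1.13 and from 0.895 to 1.11. Free RNA in droplets can give all clusters a like share of abundant transcripts, and its amount was not estimated here. A member's presence in a cluster is therefore not evidence that those cells make it.

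**Figure D5:**
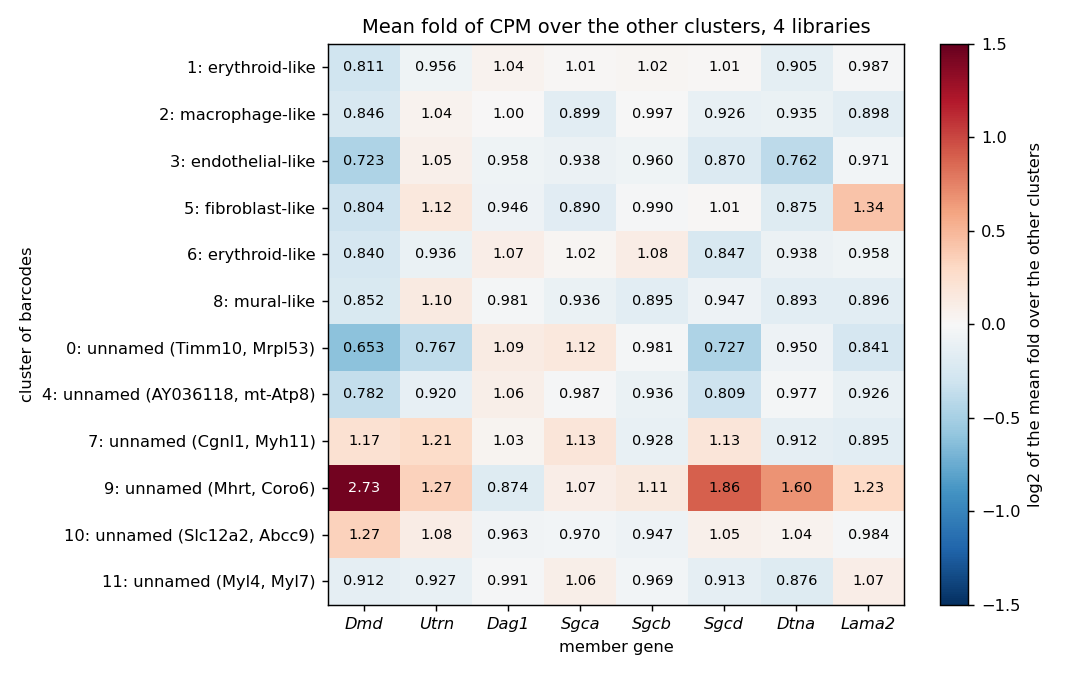
Mean over the 4 libraries of each gene's CPM in a cluster divided by its CPM in the other clusters (numbers and colour, log2 colour scale), with clusters in rows and genes in columns. Dmd reaches 2.73, Sgcd 1.86 and Dtna 1.60 in the cluster led by Mhrt and Coro6, and Lama2 reaches 1.34 in fibroblast-like barcodes.

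The directions between libraries on total UMIs were shared by most clusters for the 5 members over 200 kb and split for some of the shorter ones. In young I/R over young sham, Dmd and Utrn were lower in 12 of 12 clusters and Sgcd, Lama2 and Dtna in 11 of 11 with at least 20 UMIs. Relative to the median ratio of each cluster's genes, these counts were the same, and Sgca was lower in 11 of 12, Sgcb in 8 of 11 and Dag1 in 7 of 12. Over all barcodes, by contrast, Dag1, Sgca, Sgcb and Dtna lay above the median in this comparison. In aged I/R over aged sham, Utrn was higher in 12 of 12 clusters (log2 ratios from 0.58 to 1.05) and Sgca lower in 12 of 12 (from -0.81 to -0.17). Dmd was higher in aged I/R in 11 of 12 clusters, the exception being the Mhrt-led cluster with -0.10. In aged over young sham, Dmd, Utrn and Dtna were lower in 12 of 12 clusters and Sgcd and Lama2 in 11 of 12. Sgcb was lower in 5 and higher in 7 of 12 clusters in aged I/R over aged sham and was 6 and 6 in aged over young sham, where Sgca was lower in 7 and higher in 5. Dag1 was lower in 10 and higher in 2 in young I/R over young sham and in aged over young sham. Clusters of 1 library share its free RNA and its depth, so they are not independent samples of a direction. The share of all genes with such directions over the clusters was not counted. Over all barcodes, genes over 200 kb had an upper quartile of -0.51 in young I/R over young sham and -0.08 in aged over young sham. Their lower quartile was 0.00 in aged I/R over aged sham.

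Over the 48 sums of 12 clusters in 4 libraries, the genes whose level (log2 of CPM plus 1) was most like that of Dmd included Sorbs2, an adaptor protein of heart muscle, with a Pearson correlation of 0.963, and Smg1 with 0.926. Those most like Utrn were Bod1l (0.956), Sptbn1 (0.951) and Ppp1r12a (0.948), and those most like Lama2 were Xrn1 (0.921), Msh3 (0.918) and Brd9 (0.915). They were sought among 6893 genes with at least 2000 UMIs, and the points share libraries, depth and free RNA.

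Of 52 other genes of the complex and its surroundings, 4 were past 1.5-fold higher and 7 lower of 47 with enough UMIs in young I/R over young sham, and 8 higher and 3 lower of 48 in aged I/R over aged sham. In aged over young sham 1 was higher and 5 lower of 47, and in aged over young I/R 7 were higher and 3 lower of 48. Over all genes the shares past the limit, higher and lower, were 5.35% and 21.0%, 11.2% and 7.43%, 6.12% and 10.8%, and 16.4% and 3.29% in the same order of comparisons, and the counts by list below stand against these. The 52 genes had median log2 ratios of -0.44, 0.15, -0.18 and 0.34, against -0.44, 0.09, -0.14 and 0.43 for all genes in the same order. The remaining sarcoglycan and sarcospan genes (3 with enough UMIs) had 1 gene past the limit over the 4 comparisons, Sgce, lower in young I/R. The syntrophin, dystrobrevin and nitric oxide synthase list had 1, Sntg1 in aged over young I/R. In the list of dystroglycan glycosylation, B3galnt2 was lower in young I/R, Pomt1 was lower in aged than in young sham, and after I/R in aged mice Rxylt1 was higher and Dpm3 lower. Of 5 genes of integrin and vinculin attachment, Itgb1 was higher in young I/R, Tln1 and Tln2 in aged I/R over aged sham, and Tln2 also in aged over young I/R, where Itga7 was lower, and Tln2 was lower in aged sham.

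Of 6 cytoskeletal linkers, Des and Flnc were past 1.5-fold higher and Ank2 and Synm lower in young I/R over young sham, Plec and Ank3 higher in aged I/R over aged sham, Ank2 and Ank3 lower in aged over young sham, and Ank2 and Synm higher and Flnc lower in aged over young I/R. Flnc, the muscle filamin that binds sarcoglycans, had 156 CPM in young sham against 517 in young I/R, and 173 against 191 at the older age. Cav3, the caveolin of muscle, had 39.1, 104, 49.2 and 53.7 CPM in that order. Young I/R stood above the other 3 libraries for both, with log2 ratios over young sham of 1.73 (1.68 to 1.78) and 1.41 (1.31 to 1.51), and for aged over young I/R of -1.43 and -0.95. Ank2, ankyrin-B, had 223 CPM in young sham against 58.4 in young I/R, and 102 against 124 at the older age, with a log2 ratio of -1.94 (-2.01 to -1.87) in young I/R over young sham and -1.13 in aged over young sham. Ank3, ankyrin-G, had -0.88 in the latter.

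Of 7 laminin chains and other ligands of dystroglycan, Lama4 and Agrn were past 1.5-fold lower in young I/R over young sham, Agrn and Hspg2 lower and Lamc1 higher in aged I/R over aged sham, Hspg2 higher in aged over young sham and Lamc1 higher in aged over young I/R. Among them agrin (Agrn) had 86.4 CPM in young sham and 33.1 in young I/R, which gives -1.38 (-1.48 to -1.28) on the log2 scale. Perlecan (Hspg2) had 185 CPM in young sham and 182 in young I/R, 284 and 131 in the aged sham and I/R libraries, a log2 ratio of -1.11 (-1.15 to -1.07) in aged I/R over aged sham and of 0.62 in aged over young sham. Lamc1, the γ1 laminin chain, had 59.4, 48.4, 43.4 and 105 CPM in the same order of libraries, a log2 ratio of 1.27 (1.20 to 1.35) in aged I/R over aged sham. Lamc1 and Hspg2 thus went in opposite directions after I/R in aged mice.

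Of 5 genes of caveolae and membrane repair, Cav3 was past 1.5-fold higher in young I/R over young sham, Trim72 and Myof higher in aged I/R over aged sham, Trim72 lower in aged over young sham, and Trim72 and Myof higher and Cav3 lower in aged over young I/R. The membrane repair gene Trim72 (MG53) had 15.8 and 9.65 CPM in the young sham and I/R libraries and 9.04 and 22.9 in the aged ones, with a log2 ratio of 1.34 (1.18 to 1.51) in aged I/R over aged sham. Myof, a ferlin of membrane repair, had 1.45 (1.32 to 1.58) in aged over young I/R. In the dystroglycan glycosylation list, which supplies the sugar that laminin binds, Dpm3 had -0.80 (-0.93 to -0.68) in aged I/R over aged sham and B4gat1 0.41 (0.26 to 0.57) in aged over young sham. The highest ratio in aged over young I/R, 3.91 (2.51 to 5.81) for the syntrophin gene Sntg1, rests on 101 UMIs in aged and 4 in young I/R.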

How the data were processed

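Left ventricle of C57BL/6J mice was profiled in 4 droplet libraries, 1 per condition. The authors deposited unscaled UMI counts for every gene in each barcode, made by alignment to mm10 and barcode calling with Cell Ranger 6.0.2, as the labels' processing notes give it. Groups were taken from sample titles. The 8 genes and all lists were chosen with earlier results of these data known.

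UMIs were summed over all barcodes per library and given as CPM of all UMIs, with exact Poisson 95% intervals. Ratios of 2 sums have exact conditional binomial intervals, and differences of ratios normal intervals from the 4 counts. Intervals cover counting error only, and at 25836175 to 66767829 UMIs per library they are narrow. No p-value was computed, since each condition has 1 library. Comparisons used genes that reached 100 UMIs in the pair of libraries. Past 1.5-fold means on total UMIs and relative to the median ratio of all genes. The ratio calculation was tested on simulated counts for young I/R over young sham, drawn without a shift of all genes or a trend with gene span. Clustering and the motif search were not tested in this way.

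For clustering, barcodes with 200 or more detected genes were brought to 10000 UMIs each and log values taken. From 2000 variable genes, chosen within libraries without the 8 genes and the 52 pathway genes, 10 principal components, 20 neighbours and the Leiden method at resolution 1 were used. A name needed at least 3 markers at 1.5-fold, more than any other class, and at least 1 among the 10 leading genes (at least 50 UMIs and 50 CPM) with no class ahead. The study's own cell names were not used, and doublets were neither sought nor removed. Positions are from GENCODE M21, which held 99.6% of the 32285 gene identifiers, and the windows before starts from RefSeq (GRCm38.p6).

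Named genes are the 8 members, the 2 pathway genes at each end of a comparison, and the 3 genes most like Dmd, Utrn and Lama2 over clusters and libraries, and some that this rule names are not reported here. Alternatives changed the scale, the totals, the barcodes, the UMI minimum, the fold and the clustering. The share of UMIs of genes over 200 kb and the look at the highest cluster of each gene were added after the data were seen. Sums and intervals used Python 3.11.15 with pandas 2.3.3, numpy 2.4.6 and scipy 1.17.1, clusters used scanpy 1.11.5 with igraph 0.11.9, and plots matplotlib 3.10.9.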

Additional observations from a re-analysis of the deposited data

Results flagged for a closer look

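For 4 genes the log2 ratio of I/R over sham ran in opposite directions in young and aged mice, on total UMIs and relative to the median of all genes. The aged minus young difference was 1.0 for Dmd (-0.61 in young and 0.39 in aged mice), 1.65 for Utrn (-0.87 and 0.78), 2.33 for Sgcd (-1.71 and 0.62) and 1.5 for Lama2 (-1.25 and 0.25). With 1 library in each arm the difference was not tested. The share of all genes with such opposite directions was not counted, so these 4 have no background beside them. The same contrast of libraries holds the shift of all genes, with a median difference of 0.54, and that of genes over 200 kb, to which these 4 belong. As a share of the UMIs of genes over 200 kb, a scale added after the data were seen, the log2 ratios in young and aged mice were 0.16 and -0.24 for Dmd, -0.10 and 0.15 for Utrn, -0.94 and -0.01 for Sgcd and -0.48 and -0.39 for Lama2. On that scale Dmd turned, Lama2 was lower at both ages, the interval of Sgcd in aged mice held 0 (-0.13 to 0.10), and Utrn was the 1 gene to keep both directions.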

How the results depend on the processing

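Each condition rests on 1 library, so no value has a check against the spread between animals, no library could be left out, and depth, RNA quality and condition cannot be told apart. No paired analysis was possible because each condition has 1 library and nothing in the labels links libraries. The counts of genes past 1.5-fold depended on the rule. On total UMIs alone there were 4 lower in young I/R over young sham (Dmd, Utrn, Sgcd, Lama2, against 41.9% of all genes), 4 lower in aged over young sham (Utrn, Sgcd, Dtna, Lama2, against 16.9%), 2 higher in aged I/R over aged sham (Utrn, Sgcd, against 14.4%) and 3 higher in aged over young I/R (Utrn, Sgcd, Lama2, against 39.3%). At a fold of 2, Sgcd was the 1 gene lower in young I/R over young sham (9.16% of all genes) and in aged over young sham (2.94%), and 0 were higher in aged I/R over aged sham (2.79%) and in aged over young I/R (6.67%). With barcodes of at least 200 genes, 4 were lower in aged over young sham (Dmd, Sgcd, Dtna, Lama2, against 15.1%) and 1 higher in aged over young I/R (Utrn, against 16%). Relative to the median alone, 1 was lower in the latter (Sgca, against 14.0%).

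The aged minus young difference of the I/R log2 ratios moved with the totals. Relative to the median of all genes it was 0.46 for Dmd, 1.11 for Utrn, 0.21 for Dag1, -0.79 for Sgca, 1.79 for Sgcd, 0.41 for Dtna and 0.95 for Lama2, and it turned to -0.16 for Sgcb, since the shift of all genes was subtracted. Without Gm42418, Malat1 and mitochondrial genes in the totals it was 0.77, 1.42, 0.52, -0.48, 2.10, 0.71 and 1.26 in the same order, and 0.14 for Sgcb. With barcodes of at least 200 genes it was 1.32 for Dmd, 0.63 for Dag1, -0.11 for Sgca, 2.56 for Sgcd and 1.22 for Dtna.

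Among clusters of at least 1000 barcodes, the highest fold at resolution 2 was 3.06 for Dmd, 1.33 for Utrn, 1.22 for Sgcb, 2.04 for Sgcd and 1.75 for Dtna, each in a cluster led by Mhrt, and 1.17 for Dag1 in another. With genes scaled over all libraries together it was 3.31, 1.33, 2.37 and 1.94 for Dmd, Utrn, Sgcd and Dtna, in a cluster led by Mhrt, and 1.24 for Lama2 in a cluster led by Meg3. This Mhrt-led cluster drew 72.5% of its barcodes from young sham. It held 50.3% of the clustered barcodes of that library, against 1.57% of young I/R, 2.95% of aged sham and 2.33% of aged I/R. Fibroblast-like over all clustered barcodes, a comparison chosen after the clusters were seen, was 0.762 (resolution 2) and 0.787 (joint scaling) for Dmd, 1.05 (resolution 2) for Utrn, and 1.13 (resolution 2) and 1.20 (joint scaling) for Lama2. Clusters under 1000 barcodes reached more for some genes, among them 1.22 for Dag1 and 1.33 for Sgcb at resolution 2 (603 barcodes) and 1.47 for Utrn with joint scaling (546 barcodes). The cause of these moves was not tested.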
